A study of Danio rerio with 18 samples.

Results

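Transcripts of 10 genes of neutrophils and of the acute cytokine response were followed in ventricles of adult zebrafish, among 25107 genes of the deposited count table. They were chosen by name. Of these, 4 mark or equip neutrophils (mpx, lyz, ncf1 and csf3r) and 6 encode secreted signals (il1b, cxcl8a, tnfa, tnfb, csf3a and csf3b). All 10 were found in the table and all 10 were among the 20462 genes left by the filter on low counts.

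Neutrophils are short-lived granulocytes and among the first leukocytes to enter injured tissue. Their granules carry myeloperoxidase and lysozyme, and an oxidase assembled at the membrane gives the oxidative burst. Interleukin 1 beta and tumour necrosis factors (TNF) are made early by leukocytes and stromal cells and act through NF-kB, the chemokine Cxcl8 draws neutrophils to a wound, and granulocyte colony-stimulating factor (G-CSF, encoded by csf3 genes) drives their production in the marrow, which in fish is the kidney.

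The study asked what loss of tcf21, a transcription factor of the epicardium, does to the heart at rest and after injury. Poly(A) RNA was sequenced from 6 groups of 3 libraries, and each library held 2 to 3 pooled ventricles. All fish carried the tcf21vln18/vln18 alleles, the Tg(ubbR:CreERT2*)vln2 transgene for a Cre recombinase that is expressed ubiquitously and switched on by the drug, and the TgBAC(tcf21:DsRed2)pd37 reporter. The conditional knock-out (cKO) groups had been bathed 3 times for 24 h in 5 µM 4-hydroxytamoxifen, and no 4-hydroxytamoxifen is listed for the control groups, so drug exposure and gene deletion came together. In each arm, ventricles were taken on day 3 after cryoinjury, in which a liquid-nitrogen-cooled probe touches the ventricle, on day 3 after a sham operation, or without injury. Uninjured hearts were harvested 12 days after the first bath. P-values measure the spread between these pooled libraries.

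Totals ran between 107256750 and 191085931 counts per library. Counts of tcf21 itself averaged 0.824, 0.795 and 0.707 CPM (counts scaled for library size) in cKO cryoinjury, sham and uninjured ventricles, against 14.9, 16.6 and 8.09 CPM in the matching control groups, and the gene was called lower in all 3 conditions. Of 11 lists of cell type markers, the ventricular cardiomyocyte genes (myl7, cmlc1, tnnt2a and nppa) had the highest summed level in every group, at least 15101 CPM in a library. Per the file headers the 5 libraries of lane 2 were the 3 uninjured control libraries and 2 of the 3 control sham libraries, and the other 13 came from lane 4, so lane and procedure overlap in the control arm and not in the cKO arm.

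Levels differed widely between the 10 genes. In TPM, which allows for transcript length, ncf1 had the highest mean over the 18 libraries at 8.86 TPM, above 76.0% of the genes in the table. It was followed by lyz at 3.62, tnfb at 2.64, csf3r at 2.33 and mpx at 1.08 TPM. The other 5 averaged under 1 TPM, from 0.810 TPM for il1b and 0.767 TPM for cxcl8a to 0.0859 TPM for csf3b. No count at all was found in 22 of the 180 combinations of gene and library, of which 11 belonged to csf3b, 8 to csf3a, 2 to tnfa and 1 to cxcl8a.

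The neutrophil granule gene mpx encodes myeloperoxidase, which makes hypochlorous acid, and lies on chromosome 10 at 7778870 to 7785945 of GRCz11. In cryoinjured ventricles it had 0.260, 0.788 and 0.773 CPM in the cKO libraries, against 2.59, 1.73 and 1.66 CPM in the control libraries. After sham operation it had 4.89, 4.44 and 0.740 CPM in cKO ventricles, against 4.70, 6.11 and 3.40 CPM in control ventricles. In uninjured ventricles it had 0.888, 0.449 and 1.73 CPM in cKO, against 0.229, 5.76 and 0.666 CPM in control. All 3 cryoinjured cKO libraries lay below all 3 cryoinjured control libraries, and all 3 cryoinjured control libraries lay below the 3 control sham libraries. Replicate 3 of the cKO sham group and replicate 2 of the uninjured control group stood apart from their partners, with 6.60-fold and 25.2-fold in CPM between the highest and the lowest library.

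The transcript of lyz, which encodes the lysozyme that cuts bacterial cell walls, was also uneven (chromosome 24, 24035863 to 24038800). Its cryoinjury values were 0.206, 0.788 and 1.16 CPM in cKO, against 1.64, 1.65 and 0.860 CPM in control. Its sham values were 5.14, 2.72 and 0.128 CPM in cKO, against 0.420, 0.601 and 1.72 CPM in control, and its uninjured values were 2.06, 0.943 and 4.50 CPM in cKO, against 0.0678, 2.49 and 0.60 CPM in control. No pair of groups was free of overlap in any of the comparisons made here, and CPM in cKO sham ventricles differed 40.3-fold between the highest and the lowest library. The gene overlaps abcc13 on the same strand, so reads in the shared stretch could be credited to either; abcc13 was called in none of the 12 comparisons.

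The oxidase subunit gene ncf1, whose product organises the phagocyte NADPH oxidase at the membrane, was the most abundant of the neutrophil genes (chromosome 5, 61432541 to 61445697). Cryoinjured ventricles held 18.9, 20.9 and 19.5 CPM in cKO, against 14.0, 23.3 and 26.6 CPM in control. Sham ventricles held 7.20, 15.6 and 14.7 CPM in cKO, against 10.1, 4.47 and 12.2 CPM in control, and uninjured ventricles held 7.50, 2.86 and 10.2 CPM in cKO, against 2.68, 7.25 and 9.47 CPM in control. In both arms every cryoinjured library lay above every sham and every uninjured library, and sham and uninjured libraries overlapped.

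The receptor gene csf3r encodes the G-CSF receptor of the neutrophil lineage (chromosome 16, 3103182 to 3127749). It had 4.28, 5.71 and 5.91 CPM in cryoinjured cKO ventricles, against 3.69, 7.55 and 6.44 CPM in cryoinjured control ventricles. Sham values were 3.83, 5.80 and 8.77 CPM in cKO, against 2.62, 2.00 and 4.51 CPM in control, and uninjured values were 1.52, 1.67 and 3.63 CPM in cKO, against 1.13, 6.30 and 1.81 CPM in control. Within the cKO arm, cryoinjured and sham libraries both lay above all uninjured libraries. Within the control arm replicate 2 of the uninjured group reached the cryoinjured range, as it reached the sham range for mpx.

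**Figure D1:**
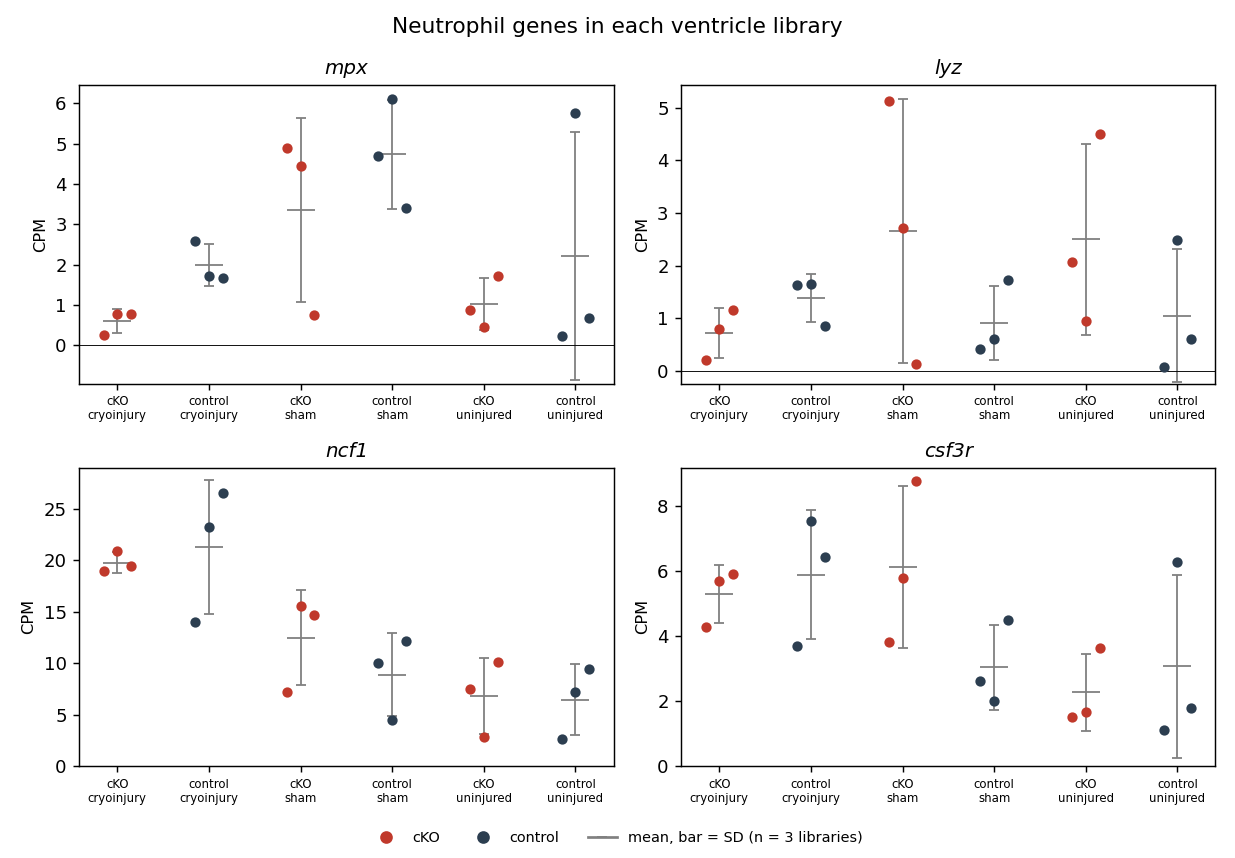
Levels of the 4 neutrophil genes in CPM for each of the 18 libraries (points), by group, with the mean and SD of each group of 3. Within each arm the cryoinjured libraries lie highest for ncf1, the cryoinjured cKO libraries lie at or under 0.788 CPM for mpx, and 1 uninjured control library stands apart at 5.76 CPM of mpx.

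Among the signals, il1b encodes interleukin 1 beta, which starts inflammatory gene expression in many cell types (chromosome 10, 44955106 to 44964776). It had 1.72, 1.44 and 0.891 CPM in cryoinjured cKO ventricles, against 1.98, 1.51 and 2.74 CPM in cryoinjured control ventricles. After sham operation it had 1.17, 1.58 and 1.14 CPM in cKO, against 1.77, 0.848 and 1.61 CPM in control. Uninjured ventricles had 1.70, 0.582 and 2.21 CPM in cKO, against 0.161, 0.670 and 0.773 CPM in control. The uninjured control libraries were all lower than every sham and every cryoinjured control library, whereas the 3 cKO groups overlapped one another.

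The neutrophil attractant cxcl8a, the fish counterpart of mammalian interleukin 8, was near 0 in uninjured ventricles (chromosome 1, 14253118 to 14254166). It had 0.472, 0.248 and 0.411 CPM in cryoinjured cKO ventricles, against 0.928, 1.51 and 0.640 CPM in cryoinjured control ventricles, with no overlap. Sham values were 0.166, 0.576 and 0.0425 CPM in cKO, against 0.184, 0.133 and 0.633 CPM in control, and uninjured values were 0.0807, 0 and 0.0235 CPM in cKO, against 0.0254, 0.10 and 0.0200 CPM in control. Behind the uninjured values stood at most 16 counts in a library, and behind the highest cryoinjured control value 190 counts.

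Zebrafish have a pair of TNF genes, tnfa (chromosome 19, 27019432 to 27024019) and tnfb (chromosome 15, 34699585 to 34702661). The level of tnfa was 0.254, 0.216 and 0.104 CPM in cryoinjured cKO ventricles, against 0.362, 0.574 and 0.801 CPM in cryoinjured control ventricles. The level of tnfb was 3.16, 3.33 and 2.06 CPM in cryoinjured cKO ventricles, against 4.30, 4.18 and 9.78 CPM in cryoinjured control ventricles. For both genes all cryoinjured cKO libraries lay below all cryoinjured control libraries. Sham values of tnfb were 0.212, 1.49 and 0.902 CPM in cKO, against 1.70, 0.335 and 0.589 CPM in control, and uninjured values were 1.15, 0.793 and 0.657 CPM in cKO, against 0.432, 0.413 and 1.51 CPM in control. In each arm every cryoinjured library exceeded every sham and uninjured library for tnfb, and sham and uninjured libraries overlapped. Sham values of tnfa were 0.0757, 0 and 0.272 CPM in cKO, against 0.184, 0.0506 and 0.418 CPM in control, and uninjured values were 0.250, 0.0353 and 0.133 CPM in cKO, against 0, 0.163 and 0.120 CPM in control.

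The G-CSF genes csf3a (chromosome 12, 10631266 to 10637172) and csf3b (chromosome 19, 48037798 to 48039506) were, with tnfa, the scarcest. For csf3a every group held at least 1 library with no count, and in cKO sham and uninjured cKO ventricles replicate 1 alone had counts, at 1.03 and 1.36 CPM. Cryoinjured ventricles had 0.200, 0.496 and 0 CPM of csf3a in cKO, against 0.0572, 0 and 0.103 CPM in control. For csf3b there was no count in any of the 6 uninjured libraries, and 1 library of each sham group had counts, at 0.0425 CPM in cKO and 0.0696 CPM in control. In cryoinjured ventricles csf3b had 0, 0.0432 and 0.0975 CPM in cKO, against 0.254, 0.112 and 0.215 CPM in control, and the groups did not overlap. These csf3b values stand for 0, 8 and 14 counts in cKO, against 40, 14 and 44 counts in control.

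**Figure D2:**
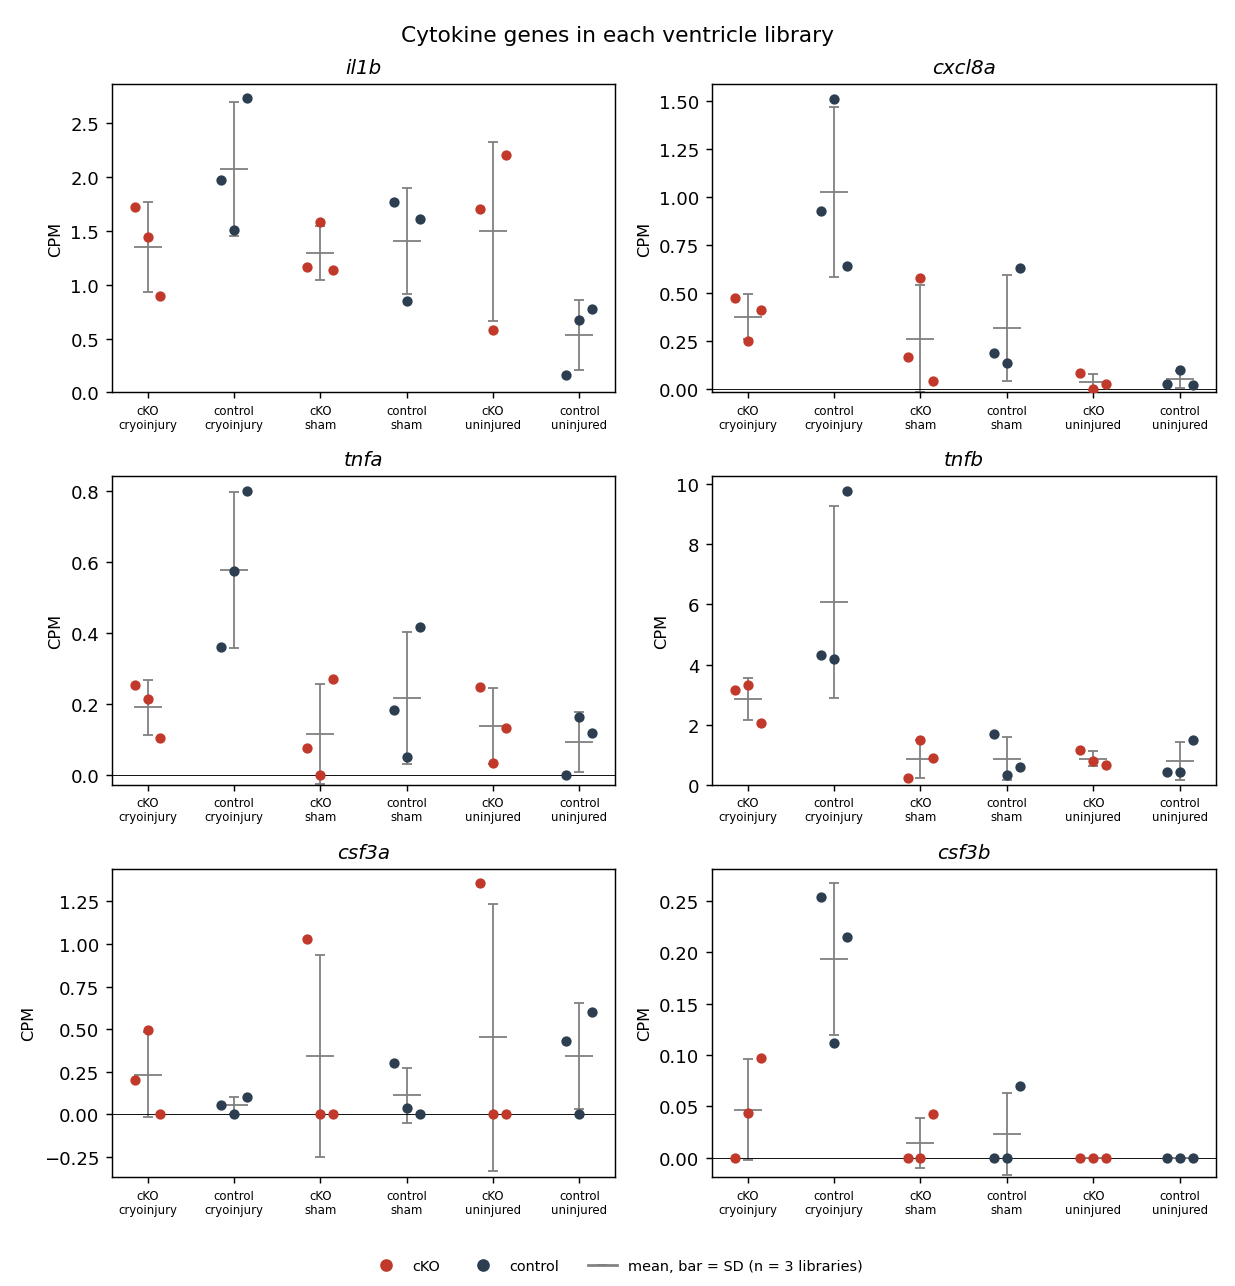
Levels of the 6 cytokine genes in CPM for each of the 18 libraries (points), by group, with the mean and SD of each group of 3. For cxcl8a, tnfa, tnfb and csf3b the cryoinjured control libraries lie above the cryoinjured cKO libraries without overlap, and for csf3a most libraries lie near 0.

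Whether cryoinjury moved these genes relative to uninjured hearts was tested in each arm. In cKO ventricles the log2 fold change of ncf1 was 1.53 (SE 0.50, adjusted p = 0.0630), that of cxcl8a 3.38 (SE 1.12, adjusted p = 0.0626), that of tnfb 1.72 (SE 0.69, adjusted p = 0.123) and that of csf3r 1.22 (SE 0.55, adjusted p = 0.170), and none passed the threshold of 0.05. These 4 were also the genes whose groups did not overlap, against 20% of all genes not overlapping in that direction, and the 4 with an unadjusted p under 0.05. In control ventricles tnfb rose by 2.95 (SE 0.72, adjusted p = 0.00679), cxcl8a by 4.36 (SE 1.14, adjusted p = 0.0106), il1b by 1.95 (SE 0.55, adjusted p = 0.0161) and ncf1 by 1.72 (SE 0.50, adjusted p = 0.0217). The neutrophil granule genes were not called in either arm, with differences of -0.75 (SE 0.90) for mpx and -1.80 (SE 1.13) for lyz in cKO, and of -0.16 (SE 0.88) and 0.39 (SE 1.1) in control.

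In counts, 0 of the 10 genes were called in cKO ventricles by the quasi-likelihood test of edgeR, where 10.6% of all genes tested were called in either direction. DESeq2 called 2 of the 10 (ncf1 and cxcl8a), where it called 3394 of 23305 genes. Leaving out replicate 1 of the uninjured cKO group gave 1 in edgeR's test (cxcl8a, adjusted p = 0.0357), where 2240 of 20991 genes were called. In control ventricles 4 of 10 were called, all higher, where 13.1% of all genes were called higher and 23.7% were called in either direction. There 6 of 10 did not overlap and were higher (these 4, tnfa and csf3b), against 20.1% of all genes. Of the 6, csf3b passed the filter on low counts only through the cryoinjured control libraries, so its place in that count is not independent of the filter. The median log2 fold change was 0.84 in cKO, or 0.71 with csf3b set to its bound against 3 counts per library, and 1.83 in control, beside medians over all genes of 0.03 and 0.02.

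In the control arm this comparison set libraries of lane 4 against libraries of lane 2, so lane and injury cannot be told apart by a value within a lane. With lane as a term, which the split of the control sham group allows, 0 of 10 were called in control, where 662 of 20462 genes were. That term rests on 1 control sham library of lane 4 and 2 of lane 2. Among the 10 the smallest adjusted p was 0.150, for tnfb. Log2 fold changes were 3.74 (SE 1.37) for tnfb, 2.37 (SE 1.84) for cxcl8a, 1.64 (SE 1.02) for il1b and 0.97 (SE 0.90) for ncf1. In the cKO arm all libraries shared lane 4. The call of ncf1 in control was lost without uninjured replicate 1 (adjusted p = 0.0748), without cryoinjury replicate 2 (0.0570) and without cryoinjury replicate 3 (0.0683), and that of il1b without cryoinjury replicate 3 (0.0586). Without uninjured control replicate 2, the library in which mpx, lyz and csf3r were all highest of their group, csf3r was called higher as well (adjusted p = 0.00881). That fit called 4225 of 20984 genes.

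The response to cryoinjury was then compared between the arms, as cKO minus control. The largest departure by p was that of il1b, whose change from uninjured hearts was -0.15 (SE 0.53) in cKO and 1.95 (SE 0.55) in control, a difference of -2.10 (SE 0.76, unadjusted p = 0.0132, adjusted p = 0.324). Uninjured cKO ventricles averaged 1.5 ± 0.831 CPM of il1b, against 0.535 ± 0.328 CPM in uninjured control ventricles (SD, n = 3 each), a log2 difference of 1.48 (SE 0.54, adjusted p = 0.248). None of the 10 responses differed between the arms after adjustment in edgeR's test (0 of 10, where 0.0244% of all genes were called), 1 had an unadjusted p under 0.05, and DESeq2 called none. The difference was negative for 8 of the 10 genes, with a median of -1.11. The control response sets lane 4 against lane 2. With lane as a term the difference was negative for 6 of 10, with a median of -0.38. In that edgeR fit the difference was -1.79 (SE 1.15, unadjusted p = 0.138) for il1b, 1.01 (SE 2.00) for cxcl8a and 0.56 (SE 1.00) for ncf1. Both counts of signs and both medians include csf3b, at -2.03 without the lane term and 4.37 with it. As csf3b had no count in any uninjured library, these values have no SE and no defined size.

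Sham operation against uninjured hearts addressed what surgery alone did. In cKO ventricles csf3r was higher by 1.43 (SE 0.55, adjusted p = 0.328) with no overlap, cxcl8a by 2.87 (SE 1.1, adjusted p = 0.326) and mpx by 1.72 (SE 0.91, adjusted p = 0.534). In control ventricles il1b was higher by 1.39 (SE 0.54, adjusted p = 0.133) and cxcl8a by 2.67 (SE 1.07, adjusted p = 0.147), both with no overlap, and mpx by 1.09 (SE 0.89, adjusted p = 0.526). Differences for tnfb were 0.01 (SE 0.68) in cKO and 0.16 (SE 0.68) in control. In edgeR's test 0 of 10 were called in cKO, where 1.05% of all genes were, and 0 of 10 in control, where 7.63% were; 2 in each arm had an unadjusted p under 0.05, and DESeq2 called none. Without uninjured control replicate 2, mpx was called higher in control sham ventricles (adjusted p = 0.0304). How many of all genes that fit called is not printed here. Genes that did not overlap and were higher numbered 1 of 10 in cKO, against 9.59% of all genes, and 2 of 10 in control, against 14.4%. The test of the difference between the arms called 0 of 10, where 0.0244% of all genes were called, with 1 (il1b) at an unadjusted p under 0.05 and none in DESeq2. All uninjured control libraries came from lane 2, as did 2 of the 3 control sham libraries. With lane as a term, cxcl8a was at 1.67 (SE 1.1) and il1b at 1.28 (SE 0.60) in control. In that edgeR fit the difference between the arms with the smallest p was that of csf3r (unadjusted p = 0.0373, adjusted p = 0.573), and that of il1b had an unadjusted p of 0.0861 (adjusted p = 0.674).

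Cryoinjury was also set against sham, both 3 days after surgery. The level of mpx was lower after cryoinjury by a log2 fold change of -2.47 in cKO (SE 0.94, adjusted p = 0.210) and of -1.25 in control (SE 0.89, adjusted p = 0.544), with overlap in cKO through 1 sham library and none in control. The level of tnfb was higher by 1.71 in cKO (SE 0.69, adjusted p = 0.235) and by 2.80 in control (SE 0.71, adjusted p = 0.0596), and that of ncf1 by 0.66 in cKO (SE 0.49, adjusted p = 0.584) and by 1.25 in control (SE 0.50, adjusted p = 0.206), with no overlap for either gene in either arm. For lyz the values were -1.89 in cKO (SE 1.13) and 0.60 in control (SE 1.1). By edgeR's test 0 of 10 were called in cKO, where 1.46% of all genes were, and 0 of 10 in control, where 1.37% were, with 2 at an unadjusted p under 0.05 in each arm. DESeq2 called mpx lower in cKO (adjusted p = 0.0443) and tnfb higher in control (adjusted p = 0.00154), where it called 1112 and 1365 of 23305 genes. In cKO 2 of 10 did not overlap and were higher, against 16.7% of all genes, and in control 4 of 10 were higher, against 14.8%, and 1 was lower, against 13.4%. The 4 include csf3b, which passed the filter on low counts only through the cryoinjured control libraries. The difference between the arms was called for 0 of 10, as for 0% of all genes, with none at an unadjusted p under 0.05 and none called by DESeq2, and it was negative for 9 of 10. With lane as a term it was negative for 8 of 10, and the control values were -0.77 (SE 1.23) for mpx, 3.37 (SE 1.20) for tnfb and 0.80 (SE 0.72) for ncf1.

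**Figure D3:**
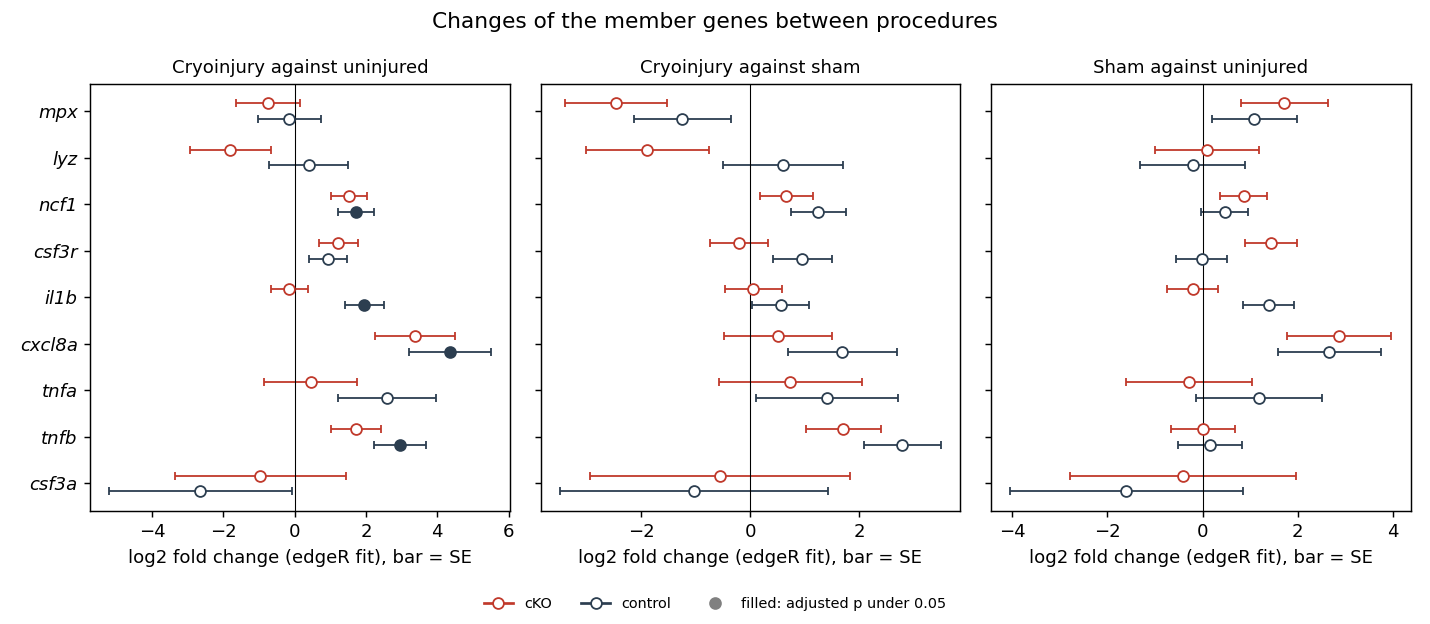
Log2 fold change with its SE for 9 of the 10 genes in 3 comparisons of procedures, cKO above control for each gene and filled where the adjusted p was under 0.05; csf3b is left out because uninjured libraries had no count. Filled points occur for ncf1, il1b, cxcl8a and tnfb in control ventricles after cryoinjury against uninjured, and mpx lies left of 0 in both arms after cryoinjury against sham.

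Between the arms, groups without overlap were found after cryoinjury and in neither other condition. All 3 libraries of cryoinjured cKO ventricles lay below all 3 of cryoinjured control ventricles for mpx, cxcl8a, tnfa, tnfb and csf3b, which is 5 of 10, against 11.3% of all genes. Of the 5, csf3b passed the filter on low counts only through the cryoinjured control libraries, the higher group here. Its place in that count is therefore not independent of the filter. Log2 fold changes were -1.72 (SE 0.92) for mpx, -1.44 (SE 1.00) for cxcl8a, -1.59 (SE 1.32) for tnfa, -1.09 (SE 0.67) for tnfb and -2.03 (SE 2.06) for csf3b. None passed edgeR's test (0 of 10, where 0.00489% of all genes were called), with adjusted p between 0.695 and 0.993, none had an unadjusted p under 0.05, and DESeq2 called none. The sign was negative for 9 of 10 genes and the median was -1.02, beside -0.01 for all genes; csf3a, at 2.08 (SE 2.51), was the exception. For ncf1 and csf3r the differences were small, at -0.11 (SE 0.49) and -0.15 (SE 0.54). All 6 libraries of this comparison came from lane 4. Other marker sums separated the arms in the same libraries: 4 ventricular cardiomyocyte genes summed to 21438 to 25115 CPM in cryoinjured cKO, against 15101 to 20382 CPM in cryoinjured control, and the endothelial genes kdrl and cdh5 to 398 to 466 CPM, against 319 to 353 CPM. After sham operation the endothelial sum also separated the arms, at 470 to 648 CPM in cKO, against 364 to 385 CPM in control. The cardiomyocyte sum overlapped there. The part of these marker genes in the lower values of the 5 genes was not tested.

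Without cryoinjury the arms overlapped for all 10 genes; among all genes, 7.86% were higher and 9.63% lower without overlap in sham ventricles, and 5.04% were higher and 5.34% lower in uninjured ventricles. In sham ventricles 0 of 10 were called, where 0.0147% of all genes were, none at an unadjusted p under 0.05, with a median of -0.06 and the smallest adjusted p, 0.685, for csf3r, at 1.01 (SE 0.54). In uninjured ventricles 0 of 10 were called, where 0.132% of all genes were, with 1, il1b, at an unadjusted p under 0.05, and a median of 0.11. DESeq2 called none in either condition. In both of these comparisons all cKO libraries came from lane 4, whereas 2 of 3 control sham and all uninjured control libraries came from lane 2. With lane as a term the uninjured median was -0.59, with 7 of 10 negative, among them csf3b, which had no count in either group. There il1b was at 1.18 (SE 1.01). In sham ventricles the median with lane was 0.01, and csf3r was at 0.44 (SE 0.76).

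Other genes of the same pathways were read from lists, again in cryoinjured against uninjured ventricles. The lanes of the control arm differ here as above, and the part of lane in these lists was not tested. Of 12 further neutrophil genes tested, 4 rose in cKO and 5 in control, with medians of 1.09 and 0.87, where 6.92% of all genes were called higher in cKO and 13.1% in control; these shares are the background for every list and marker count of this comparison. The metalloprotease gene adam8a stood at 44.9, 39.3 and 26.2 CPM in cryoinjured cKO ventricles, against 1.63, 0.449 and 1.63 CPM in uninjured cKO ventricles. In control it stood at 85.4, 42.9 and 48.0 CPM after cryoinjury, against 0.517, 3.78 and 1.57 CPM in uninjured ventricles. It rose by 4.89 (SE 0.65) in cKO and by 4.90 (SE 0.64) in control, and it also rose after sham operation, by 2.99 (SE 0.60) in cKO and 3.57 (SE 0.61) in control. The gelatinase gene mmp9 rose by 3.95 (SE 0.63) in cKO and 1.74 (SE 0.56) in control, and alox5ap, needed for leukotriene synthesis, by 2.18 (SE 0.47) and 1.61 (SE 0.46). The interleukin 6 receptor gene il6r rose in control, by 2.02 (SE 0.36), and scpp8 rose in cKO, where uninjured libraries had no count. The change of scpp8 in cKO therefore has no defined size, and the cKO median above includes it. Which cells of these bulk samples carried the rises of this list was not tested. The genes named so far were called in the arms given. For each list and comparison at most 4 called genes are named, those with the largest change. A gene named for cKO alone, on this list or those below, may thus also have been called in control. On the same list, npsn had 0.502, 1.38 and 1.63 CPM in cryoinjured cKO, against 2.36, 1.55 and 4.99 CPM in uninjured cKO. In control it had 3.27, 2.34 and 2.65 CPM after cryoinjury, against 0.983, 5.37 and 1.93 CPM in uninjured ventricles. Its groups overlapped in both arms.

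Further genes of the phagocyte oxidase were read beside ncf1. Of 4 genes, 2 rose in cKO (all genes, 6.92%) and 4 in control (all genes, 13.1%) after cryoinjury against uninjured, with medians of 1.28 and 1.93. The membrane subunit gene cybb rose by 1.53 (SE 0.39) in cKO and 1.84 (SE 0.39) in control, and its partner cyba by 1.20 (SE 0.37) and 1.95 (SE 0.38). The cytosolic subunit gene ncf4 and the small GTPase gene rac2 rose in control, by 1.99 (SE 0.47) and 1.91 (SE 0.45), and were at 1.22 (SE 0.46, adjusted p = 0.102) and 1.35 (SE 0.45, adjusted p = 0.0641) in cKO. These genes are expressed in macrophages as well as in neutrophils.

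Of 19 other cytokine and chemokine genes tested, 4 rose in cKO (all genes, 6.92%) and 9 in control (all genes, 13.1%), with medians of 1.82 and 1.87; 5 and 2 of the 19 had no count in one of the groups, and with those at their bounds the medians were 1.24 and 1.87. The regeneration-associated cytokine gene il11a rose by 5.21 (SE 1.34) in cKO and 6.14 (SE 1.34) in control, and il11b, with no count in uninjured ventricles of either arm, was called in both, as il12a was in control. The macrophage growth factor gene csf1a rose by 3.26 (SE 0.83) in cKO and tgfb1a by 0.78 (SE 0.18). In control the lowest cryoinjured library had 2.80 CPM of csf1a and the highest uninjured library 1.04 CPM, so those groups did not overlap. Of all genes, 20.1% were higher without overlap there. Whether csf1a or tgfb1a was called in control is not given here, so neither rise is shown to be limited to cKO. The chemokine gene cxcl8b.1, a paralogue of cxcl8a, had 1.34, 0.475 and 0.682 CPM in cryoinjured cKO ventricles, against 0.0367, 0.176 and 0.344 CPM in uninjured cKO ventricles. It had 1.41, 0.399 and 1.67 CPM in cryoinjured control ventricles, against 0.0339, 0 and 0 CPM in uninjured control ventricles, and rose in control by 6.73 (SE 1.30); it also rose there after sham operation, by 4.12 (SE 1.21).

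Receptors and inflammasome genes gave 4 of 13 higher in cKO (all genes, 6.92%) and 6 of 13 in control (all genes, 13.1%), with medians of 0.43 and 1.09. Inflammasome genes, whose products process interleukin 1 beta in mammals, were among them. The caspase gene caspa rose by 2.02 (SE 0.47) in cKO and 2.05 (SE 0.47) in control, and the adaptor gene pycard by 1.29 (SE 0.38) and 2.18 (SE 0.39). The flagellin receptor gene tlr5b rose by 1.21 (SE 0.20) and 1.94 (SE 0.21), its paralogue tlr5a by 1.29 (SE 0.40) in cKO and the TNF receptor gene tnfrsf1b by 1.20 (SE 0.36) in control. Among 19 genes of the NF-kB pathway and its targets, 1 rose in cKO and 8 in control, with medians of 0.20 and 0.76; the cKO count is no more than the 6.92% of all genes called higher there, and the control count stands beside 13.1%. The prostaglandin synthase gene ptgs2a rose by 2.15 (SE 0.60) in cKO and 2.14 (SE 0.60) in control. The regulators bcl3 and nfkbiaa and the gene tnfaip2b rose in control, by 2.93 (SE 0.49), 1.94 (SE 0.45) and 2.13 (SE 0.53).

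Besides the sham rises of adam8a and cxcl8b.1 given above, the following list genes are named for the other comparisons of procedures. Of all genes, 1.46% in cKO and 1.37% in control were called for cryoinjury against sham. For sham against uninjured the shares were 1.05% in cKO and 7.63% in control. Against sham, cryoinjury raised il11b in cKO, where sham libraries had no count, and bcl3 in control, by 1.96 (SE 0.47). Sham against uninjured control ventricles gave a log2 fold change of -2.78 for socs3a, a feedback inhibitor of cytokine signalling (SE 0.79, adjusted p = 0.0446), with 161, 52.6 and 43.9 CPM in sham libraries, against 44.5, 1141 and 583 CPM in uninjured libraries. Of the uninjured control libraries, 1 thus lay within the sham range. In the same comparison tlr5b rose by 1.34 (SE 0.20), tgfb1a by 0.73 (SE 0.18), and il11b was called higher, while in cKO mmp9 rose after sham operation by 2.73 (SE 0.60). No gene of the 5 lists was called between cKO and control under any of the 3 procedures, and none in a difference between the arms. Of all genes, 0.00489% were called between the arms after cryoinjury, 0.0147% after sham operation and 0.132% in uninjured ventricles. For the differences between the arms the share was at most 0.0244%.

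**Figure D4:**
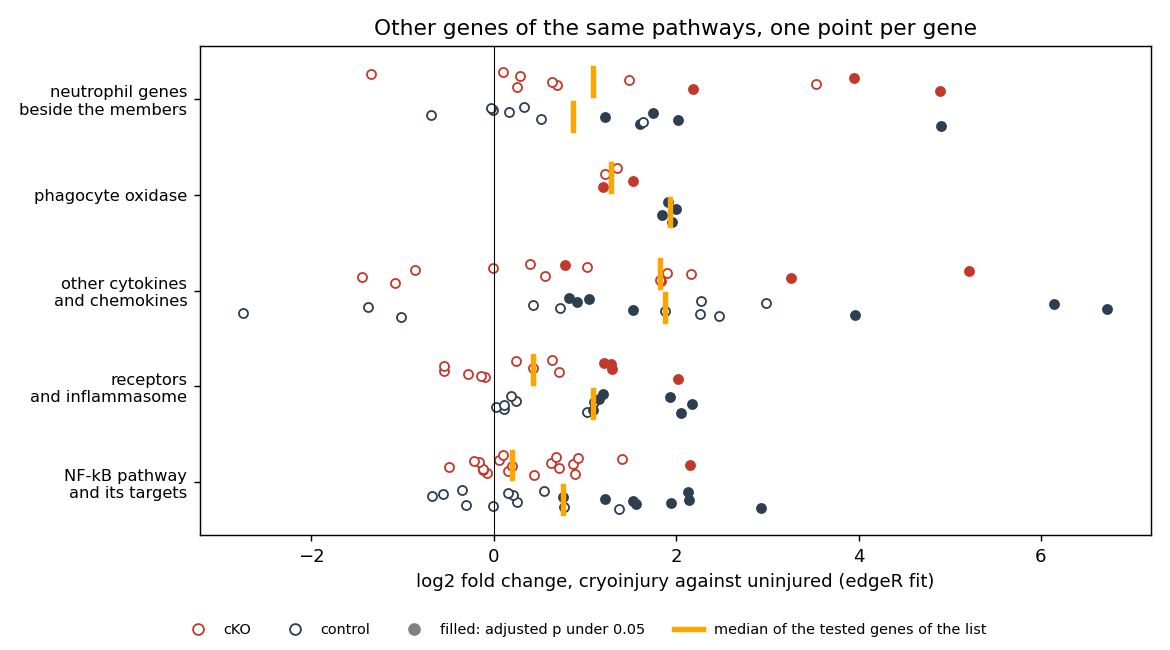
Log2 fold change of cryoinjured against uninjured ventricles for genes of 5 lists (one point per gene), cKO above control in each list, filled where the adjusted p was under 0.05, with the median of the tested genes as a bar. Genes with no count in one of the groups are not drawn (6 in cKO and 2 in control). Filled points are more numerous in control for every list, as calls are among all genes, at 23.7% in control and 10.6% in cKO. In control, lane differed between the groups as well.

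Markers of other leukocytes were read in the same libraries. Of 3 genes common to leukocytes, 2 rose in cKO and 3 in control after cryoinjury against uninjured, beside 6.92% and 13.1% of all genes. The summed level of these genes (ptprc, coro1a and lcp1) was 148 to 171 CPM in cryoinjured cKO ventricles, against 57.6 to 87.5 CPM in uninjured cKO ventricles. In control it was 229 to 252 CPM after cryoinjury, against 31.9 to 116 CPM in uninjured ventricles. Cryoinjured cKO libraries thus lay below cryoinjured control libraries for this sum as they did for mpx, cxcl8a, tnfa, tnfb and csf3b, and sham libraries held 89.3 to 113 CPM in cKO, against 115 to 135 CPM in control; ptprc, the pan-leukocyte phosphatase, was not called between the arms after cryoinjury (adjusted p = 0.540). For 4 T cell genes the sum was 2.41 to 2.84 CPM in cryoinjured cKO libraries, against 4.47 to 5.97 CPM in cryoinjured control libraries. After sham operation it was 1.91 to 2.36 CPM in cKO, against 3.66 to 4.70 CPM in control. For 4 B cell genes the arms overlapped after cryoinjury. Their sum was 1.86 to 11.4 CPM in cKO (mean 5.22), against 1.68 to 4.68 CPM in control (mean 3.58). Sums of the mast cell and of the thrombocyte genes also overlapped between the arms after cryoinjury. Of 7 macrophage genes 2 rose in cKO and 6 in control, beside the same shares, and their summed level was 318 to 382 CPM in cryoinjured cKO, against 90.4 to 259 CPM in uninjured cKO, and 329 to 518 CPM in cryoinjured control, against 43.7 to 170 CPM in uninjured control. The part of leukocyte number in the values of the 10 genes was not tested, and fewer cells of a type and less RNA per cell cannot be told apart in these bulk samples.

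The neutrophil genes did not share 1 pattern over the 18 libraries. By Pearson's r of log2 CPM, which is used here as a measure of likeness between libraries that also share depth and group, the gene most like mpx was npsn, a protease gene of zebrafish neutrophils (r = 0.88). It was also the second most like lyz (r = 0.76), and mpx and lyz stood at 0.61 with each other. For npsn, cryoinjured cKO libraries had 0.502, 1.38 and 1.63 CPM, against 3.27, 2.34 and 2.65 CPM in cryoinjured control libraries, and sham libraries had 11.12, 6.23 and 1.71 CPM in cKO, against 2.46, 5.06 and 4.08 CPM in control. Its groups, like those of mpx, did not overlap between the arms after cryoinjury, where 11.3% of all genes were lower in cKO without overlap. The cKO difference of -1.24 (SE 0.67, adjusted p = 0.701 in edgeR's test) was not called. As npsn was taken here for its likeness to mpx over these same libraries, its separation is not independent of that of mpx. In uninjured ventricles npsn had 2.36, 1.55 and 4.99 CPM in cKO, against 0.983, 5.37 and 1.93 CPM in control, so that replicate 2 was again the highest control library.

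The pattern of ncf1 was unlike that of mpx (r = 0.08). The genes most like ncf1 were olfm4l2 (r = 0.96), olmf4l1 (r = 0.94) and the lysozyme gene lygl1 (r = 0.94), and among the 10 it stood at 0.80 with csf3r, 0.75 with tnfb, 0.73 with cxcl8a and 0.73 with il1b. The gene most like csf3r was MPEG1 (ENSDARG00000043093; r = 0.89), a gene used as a macrophage marker in zebrafish. The genes most like the others were cxcl11.3 for il1b, ADGRL3 for cxcl8a, lcp2a for tnfa, SLC30A1 for tnfb, acbd4 for csf3a and xkr8.2 for csf3b; for csf3a and csf3b the likeness rests mainly on which libraries had any count.

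**Figure D5:**
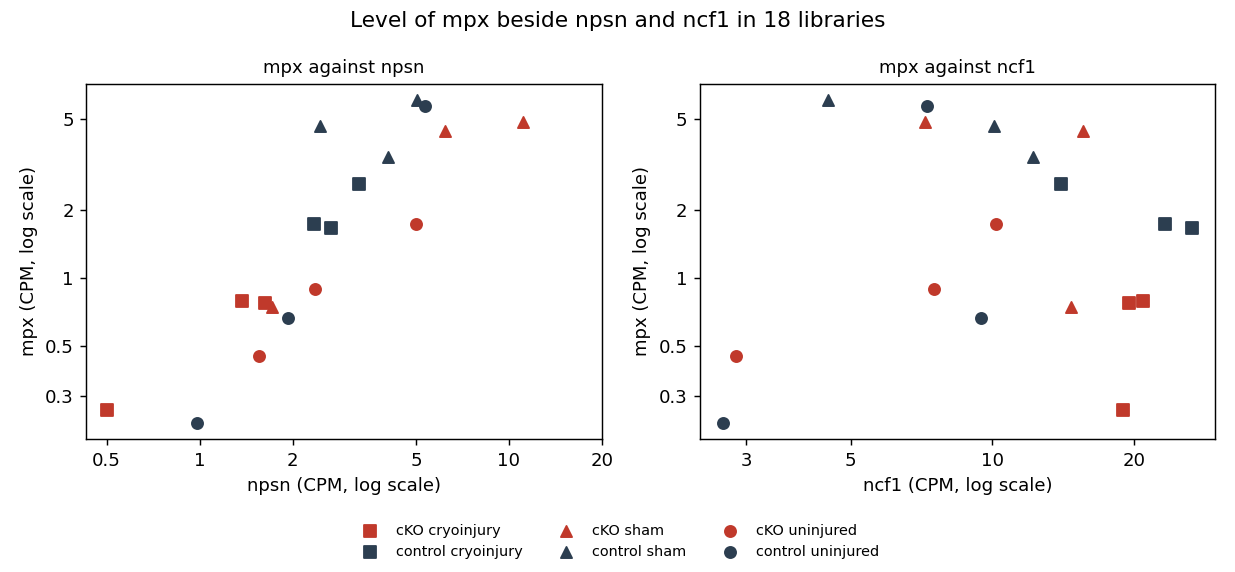
Level of mpx against npsn (left) and against ncf1 (right) in CPM on log axes, one point per library, with colour for the arm and shape for the procedure. The points rise together in the left panel, where npsn was taken as the gene most like mpx in these libraries. In the right panel the cryoinjured libraries lie at 14.0 CPM of ncf1 or above with mpx at 2.59 CPM or below.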

How the data were processed

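RNA of 18 libraries was analysed in 6 groups taken from the sample labels. The deposited table gives expected counts of each gene, which are whole numbers and unscaled, and each library's deposited file gives coverage, FPKM and TPM per transcript, per the file headers from StringTie 2.1.1 with GRCz11 and Ensembl release 109. FastQC 0.11.9, Trim Galore 0.6.10 and HISAT2 2.1.0 are named in the submitters' processing notes. In every library the deposited count of a gene equalled the rounded product of coverage and length over 75, which makes a count the equivalent of 75 aligned bases, and intervals for counting error are not printed. Genes outside the table held 1.62% to 2.53% of the counts.

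Symbols came from the supplied name tables for 23499 of 25107 genes. For mpx (ENSDARG00000019521), which the name table calls EPX, the zebrafish symbol came from 8 neighbouring genes shared with RefSeq mpx (assembly GRCz12tu, used for names only). Of 125 list and marker symbols 108 matched, and 1 further oxidase gene, in none of these counts, is not reported here.

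Genes were filtered with filterByExpr, and library sizes were adjusted by TMM (trimmed mean of M values). A quasi-likelihood F test of edgeR 4.0.16 (R 4.3.3; robust, two-sided) was run on 1 fit of 18 libraries with a mean per group, with Benjamini-Hochberg adjustment over 20462 genes; genes under 0.05 are called. CPM were computed on the adjusted library sizes, with a prior count of 2 before taking log2. TPM are the deposited values summed per gene. SE were derived from the log2 fold change and its F statistic. An exact permutation of 3 against 3 libraries cannot go below 0.1, so none is printed. Alternatives were DESeq2 1.42.0, its size factors, no filter, only the groups compared, lane, replicate number as a block, limma 3.58.1 on log2(TPM + 0.1), and each library left out; the script was tested on simulated data. The 10 genes and all lists were chosen with earlier results of these data known. The rule for names gives all 10 genes, up to 4 called genes per list and comparison with the largest change, the oxidase list and the 3 genes most like each of the 10. Per-library values of npsn, socs3a, adam8a, cxcl8b.1 and csf1a were chosen after their values were seen.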

Additional observations from a re-analysis of the deposited data

How the results depend on the processing

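In the 12 comparisons, no gene called in the main fit or in an alternative had the opposite sign in the other. Signs of genes not called did change. With lane as a term, the log2 fold change of csf3a in cryoinjury against uninjured control ventricles went from -2.64 to 5.03. That of mpx went from -0.16 to 0.51, and that of lyz from 0.39 to -1.36. Counts of called genes changed as follows. Cryoinjury against uninjured in control gave 0 of 10 with lane as a term, where 662 of 20462 genes were called. Limma on log2(TPM + 0.1) gave 7 (those called plus csf3b, csf3r and tnfa). It called 6627 of 20462 genes there, 6137 of them higher, with a median log2 fold change over all genes of 0.446. With 1 library left out the comparison gave 2 to 5, lowest without cryoinjury replicate 3, where 3980 of 20956 genes were called. In cKO the same comparison gave 1 with the replicate number as a block (ncf1, adjusted p = 0.0384), 1 with only the groups compared (tnfb, 0.0306), 2 in DESeq2, 2 in limma and 0 to 1 with 1 library left out. Of all genes, the block called 2629 of 20462, only the groups compared 1528 of 18880, DESeq2 3394 of 23305 and limma 2899 of 20462. The fits with 1 library left out called 930 to 2240 genes. Cryoinjury against sham gave 1 in DESeq2 in cKO (mpx), and in control 2 with only the groups compared (mpx and tnfb), 1 in DESeq2 and 2 in limma (csf3b and tnfb). Of all genes, DESeq2 called 1112 of 23305 there in cKO. In control, 1418 of 19147 were called with only the groups compared, 1365 of 23305 in DESeq2 and 691 of 20462 in limma. Sham against uninjured in control gave 1 in limma (il1b, 0.0381) and 0 to 1 with 1 library left out. How many of all genes these sham fits called is not printed here, so their counts stand without a background. The other 7 comparisons, all those of the arms among them, gave 0 under every alternative run. With only the groups compared, il1b was not called in control after cryoinjury (0.0745). The causes were not tested. Same-numbered libraries deviated together weakly, with 9 of 45 same-numbered pairs at r over 0.1 (range -0.03 to 0.20). Yet 14 of 18 libraries correlated best with a library of their own number. Whether replicate numbers mark a pairing cannot be told from these values, and the main fit used none. The scarce cytokines set a limit: csf3a, csf3b and tnfa had at most 185, 44 and 164 counts in a library, and their SE exceeded 1 on the log2 scale. The SE of cxcl8a, with at most 190 counts, also exceeded 1 in cryoinjury against uninjured, at 1.12 in cKO and 1.14 in control. That of lyz exceeded 1 there as well.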
